A study of Mus musculus with 4 samples.

Results

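The comparison described here sets 1 library of female mouse epiblast stem cells (EpiSCs) that carried the Xist1lox/+ genotype against 1 that carried XistdeltaA/+, both with intact Smchd1 (+/+). EpiSCs are pluripotent cells in the primed state, derived here from E6.5 embryos of a cross between C57BL6/J and JF1 x C57BL6/J F1 animals. The libraries were chosen by their genotype labels and are 2 of the 4 in the series. The other 2 hold the same pair of Xist genotypes with Smchd1 MD1/MD1, a mutant genotype, and are cited only where they repeat the same contrast. With 1 library a side no difference has a replicate check, and intervals and read tests cover counting error alone. Whether a library comes from 1 line or several is not stated in the labels. The libraries held 7826600 (XistdeltaA/+) and 7822217 (Xist1lox/+) reads that could be assigned to a parent.

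The Xist gene makes a noncoding RNA that spreads over the X chromosome it is made from and silences it. XistdeltaA lacks the A-repeat region that silencing requires, and Xist1lox is a Cre-deleted allele. Female cells normally silence either X at random, but a female that is heterozygous for a defective Xist keeps the X with the intact copy as the silent one. A minority of genes, called escape genes, remain transcribed from the silent X. Smchd1 is a chromatin protein needed to keep many X-linked genes silent.

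In both libraries nearly all Xist RNA came from the paternal X. Xist (mm9, X chromosome, 100655712 to 100678572) had an FPKM of 12.1 with XistdeltaA/+ and 10.5 with Xist1lox/+. FPKM is a length-scaled measure of the total expression of a gene. Of the reads assigned to a parent (allele-assigned reads), 16 of 3295 were maternal with XistdeltaA/+ and 3 of 2742 with Xist1lox/+. The paternal share was thus 99.5% and 99.9%, a difference with an adjusted p of 0.0407 by Fisher's exact test on the reads. That test, used throughout with Benjamini-Hochberg adjustment over 10155 genes, compares these libraries and not the conditions. Tsix, the antisense transcript that overlaps Xist, was at 2.35 FPKM with XistdeltaA/+ and at 0.174 with Xist1lox/+. All 99 allele-assigned Tsix reads with XistdeltaA/+ were maternal, and Xist1lox/+ had 8 such reads. Tsix was also lower with Xist1lox/+ in the MD1/MD1 libraries, at 1.16 against 0.293. The libraries were stranded, but the use of strand in counting is not stated in the sources at hand, so reads of Tsix and Xist may not be fully told apart. Smchd1 itself was at 27.0 and 20.9 FPKM, with 51.2% and 52.4% paternal reads. Tsix was the 1 gene past 2-fold among 7 measured genes of the X inactivation centre.

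The first comparison was of the paternal share of allele-assigned X-linked reads, taken as a measure of baseline output from the silent X. The share was low and slightly higher with Xist1lox/+. Shares were measured for the 355 X-linked genes that had 20 or more such reads in each library. Their pooled paternal share was 4.51% (95% exact Clopper-Pearson interval 4.41 to 4.61) with XistdeltaA/+ and 5.11% (5.004 to 5.22) with Xist1lox/+. Xist reads carry much of this share. When Xist and its noncoding neighbours Ftx and Jpx were left out, the remaining 352 genes gave 2.58% (2.50 to 2.66) and 3.43% (3.34 to 3.52). Most of the added paternal reads came from 54 genes within 10 Mb of Xist, with 373 and 1141. The other 298 genes had 3838 and 4183. The median gene had a share of 0% and 0.156%, and 183 and 165 of the 355 genes had no paternal read at all. Where a gene had none, the share it allows is given as 3 reads of its total, which is lower than the upper end of the two-sided exact interval. Autosomal windows of 10 Mb with a median share under 5% in both libraries, called maternal-type only, were set beside these shares. Their pooled paternal share was 0.877% and 0.890%. These 39 windows were picked by a low median share in the same libraries. Single genes in them may still carry a paternal allele, so the pooled share can exceed the background of the assignment. Their genes with an FPKM difference of less than 2-fold had a median share of 0% in both libraries.

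The sets of genes past the threshold used for escape overlapped in part. A share of 10% or more was found for 15 genes with XistdeltaA/+ (4.23% of those measured) and 24 with Xist1lox/+ (6.76%). Without genes within 10 Mb of Xist the counts were 9 and 12. One gene of that span, Chm, had 98.1% of its reads assigned to the paternal X with Xist1lox/+. The strain origin of the X carrying each Xist mutation is not given in the labels. Its part in the shares of this span, and so in these counts, was not tested. The full lists had 11 genes in common, which are 73.3% of the first list and 45.8% of the second. The 4 found only with XistdeltaA/+ (C330013F16Rik, Foxr2, Klf8 and Nhsl2) rested on 30 to 89 reads a library, and the read test called none of them. Apart from Xist, the highest was Kdm6a, a demethylase of histone H3 lysine 27, with a paternal share of 46.5% (42.0 to 51.1) and 48.8% (43.6 to 54.0). Ddx3x, an RNA helicase, followed with 34.8% (33.3 to 36.3) and 33.05% (31.6 to 34.5). The intervals of both genes overlap between the libraries. Kdm5c, a demethylase of histone H3 lysine 4, was at 33.4% (31.4 to 35.6) with XistdeltaA/+ and at 25.4% (23.2 to 27.7) with Xist1lox/+, and was the only one of the 10 genes other than Xist whose share differed (Fisher's exact test, adjusted p = 2.36e-06). With MD1/MD1 the shares of Kdm5c were 33.4% and 31.05%.

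The other genes past 10% in both libraries had shares between 12.1% and 33.9%. Pbdc1 was at 24.6% and 22.4%, and Fundc1, a receptor for the removal of mitochondria, at 23.1% and 21.2%. The noncoding RNA genes Ftx and Jpx, which flank Xist, were at 16.9% and 14.9%, and at 18.2% and 12.1%. 5530601H04Rik was at 22.5% and 14.0%. Klhl4 and Atg4a, an autophagy protease, rested on 33 to 57 reads a library, with shares of 21.2% and 33.9%, and of 12.3% and 14.3%. None of these differed between the libraries by the read test. Just inside the threshold lay Atg4a in both libraries and Jpx with Xist1lox/+. Just outside lay Mid1, a microtubule-binding ubiquitin ligase gene at the edge of the pseudoautosomal region, with 9.85% and 14.3%, and 1810030O07Rik with 9.69% and 7.26%.

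**Figure D1:**
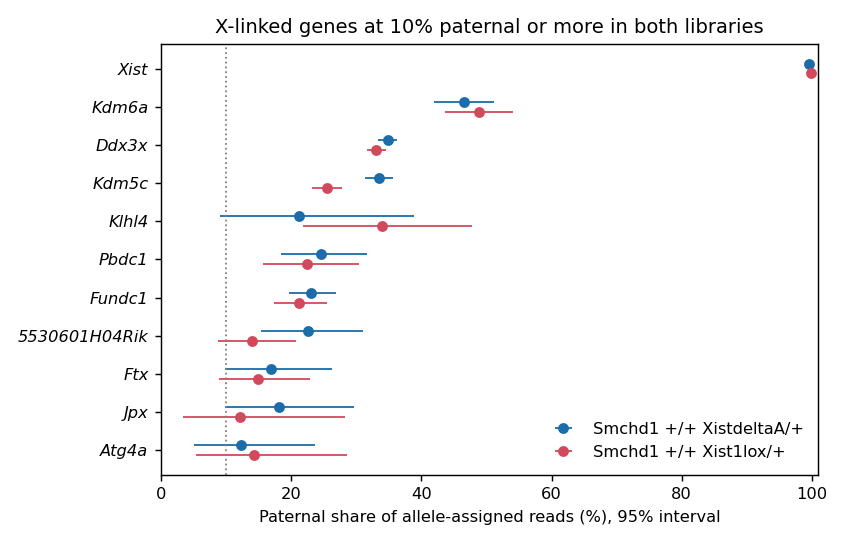
Paternal share of allele-assigned reads (x axis, percent) of the 11 X-linked genes at 10% or more in both libraries (y axis), with points for XistdeltaA/+ in blue and Xist1lox/+ in red, 95% exact intervals as bars and the 10% threshold dotted. Of the 10 genes below Xist, Kdm5c is the gene whose intervals do not overlap, 31.4 to 35.6 against 23.2 to 27.7.

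The promoters of the 4 genes with the highest paternal shares in XistdeltaA/+ among these 11 are shown, since these genes gave the clearest output from the silent X there. Each run covers 250 bases before to 50 bases after the annotated start, 5′ to 3′, from RefSeq on GRCm38.p6, whose coordinates cannot be set beside the mm9 coordinates above. Capitals mark matches to AANATGGC on either strand, the core letters of the motif of YY1, a transcription factor that binds near active starts.
Xist (chrX:103483184-103483483, minus strand): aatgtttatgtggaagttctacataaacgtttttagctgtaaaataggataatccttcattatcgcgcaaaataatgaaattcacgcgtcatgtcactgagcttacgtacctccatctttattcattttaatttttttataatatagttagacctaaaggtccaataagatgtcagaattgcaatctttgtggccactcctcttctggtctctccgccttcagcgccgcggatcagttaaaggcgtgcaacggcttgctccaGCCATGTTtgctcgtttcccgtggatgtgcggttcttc
Kdm6a (chrX:18162325-18162624, plus strand): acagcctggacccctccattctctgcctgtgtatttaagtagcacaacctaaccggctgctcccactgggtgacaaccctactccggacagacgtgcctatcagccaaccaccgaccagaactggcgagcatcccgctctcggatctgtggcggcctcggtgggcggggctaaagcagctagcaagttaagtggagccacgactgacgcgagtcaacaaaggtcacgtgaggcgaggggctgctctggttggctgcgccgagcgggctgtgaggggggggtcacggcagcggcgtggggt
Ddx3x (chrX:13280772-13281071, plus strand): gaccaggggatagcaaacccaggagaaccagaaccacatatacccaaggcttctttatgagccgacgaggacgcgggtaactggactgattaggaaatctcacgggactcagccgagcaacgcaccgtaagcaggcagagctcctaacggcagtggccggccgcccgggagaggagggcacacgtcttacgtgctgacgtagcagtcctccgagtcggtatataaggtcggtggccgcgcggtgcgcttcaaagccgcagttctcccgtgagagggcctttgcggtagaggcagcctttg
Kdm5c (chrX:152232977-152233276, plus strand): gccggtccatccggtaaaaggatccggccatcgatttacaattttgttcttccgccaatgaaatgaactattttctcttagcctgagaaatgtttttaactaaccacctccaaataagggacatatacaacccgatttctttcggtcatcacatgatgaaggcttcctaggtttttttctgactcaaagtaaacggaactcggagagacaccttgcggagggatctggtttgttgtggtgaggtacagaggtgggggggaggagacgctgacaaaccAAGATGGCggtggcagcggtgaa
The Xist and Kdm5c runs hold 1 match each, within the 50 bases after the start, and the Kdm6a and Ddx3x runs hold none. RefSeq promoters were matched for 307 of the 355 genes. The motif was in 3 of the 11 promoters of genes at 10% or more in both libraries (27.3%), in 33 of 280 of genes under 10% in both (11.8%) and in 6.96% of 27025 genes in the promoter table. The letters TATAAA were in 4 of the 11 (36.4%), against 10.4% of the 280 and 15.7% of all. Any of the promoters listed for a gene counted, and both strands were searched. The median promoter held 13 CG pairs in the 11 genes and 17 in the 280.

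A list of 17 genes known to escape or reported to do so was described beside these. Shares could be measured for 16 of them, of which 8 reached 10% in XistdeltaA/+, 9 in Xist1lox/+ and 8 in both. Bgn, an extracellular matrix proteoglycan, had no paternal read in either library (0 of 480 with XistdeltaA/+, which allows up to 0.625%), and Shroom4, an actin-binding protein, had 0 of 49 and 0 of 34, which allows up to 6.12% with XistdeltaA/+. Firre, a long noncoding RNA gene, was at 3.67% and 3.37%. By the read test 4 of the 16 differed, where 7.61% of all X-linked genes measured did. Besides Xist and Kdm5c these were Utp14a, which acts in ribosome assembly and went from 4.96% to 1.19% (Fisher's exact test, adjusted p = 8.05e-06), and Mid1 (adjusted p = 0.0039). The FPKM of the 15 list members with a mean of at least 1 did not reach a 2-fold difference either way, with a median log2 ratio of -0.16 against -0.026 for all genes.

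Differences between the libraries gathered around Xist. By Fisher's exact test 27 of 355 X-linked genes had different paternal shares (7.61%, against 25% of all 10155 genes, most of them in autosomal windows where parental type differed), 22 of them higher with Xist1lox/+ and 5 lower. Within 10 Mb of Xist, a limit chosen after the values were seen, 11 of 57 genes differed (19.3%), and all 11 were higher with Xist1lox/+. Xist itself is counted among the 57 and the 11. Farther away 16 of 298 differed (5.37%), with 11 higher and 5 lower. The pooled share of the genes within 10 Mb, without Xist, Ftx and Jpx, was 1.38% (1.25 to 1.53) with XistdeltaA/+ and 4.85% (4.58 to 5.13) with Xist1lox/+. For the 298 farther genes it was 2.82% (2.73 to 2.91) and 3.18% (3.08 to 3.27). Of the 13 genes at 10% or more only with Xist1lox/+, 7 lay within 10 Mb of Xist.

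Chm stood out among them. It encodes Rab escort protein 1 and lies 9.50 Mb from Xist (110154201 to 110299124). Its paternal share was 4.05% (1.64 to 8.16) of 173 reads with XistdeltaA/+ and 98.1% (94.6 to 99.6) of 159 reads with Xist1lox/+ (Fisher's exact test, adjusted p = 1.99e-80). Its total expression was near-equal, with 3.81 and 3.01 FPKM. A share near 100% leaves almost no reads for the maternal X, which is the X that gave almost no Xist reads. The MD1/MD1 libraries repeated the split, with 5.85% in XistdeltaA/+ and 96.2% in Xist1lox/+.

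Several neighbours went from almost no paternal reads to 20% or more. Hmgn5, a nucleosome-binding protein, had 0 of 899 reads with XistdeltaA/+, which allows up to 0.334%, and 34.1% of 258 with Xist1lox/+. Kif4, a kinesin that acts on mitotic chromosomes, had 0 of 1382 reads (up to 0.217%) and then 21.9% of 904. Rps6ka6, a kinase of the ribosomal S6 kinase family, went from 0.198% to 22.4%, Snx12, a sorting nexin, from 0.416% to 20.6%, and Efnb1, which encodes ephrin B1, from 0 of 38 reads to 32.1% of 56. The adjusted p of these 5 genes was 0.000151 or smaller (Fisher's exact test). Total FPKM was lower with Xist1lox/+ for Hmgn5 (54.8 and 32.2), Kif4 (24.0 and 16.6) and Rps6ka6 (29.7 and 17.6). It was higher for Snx12 (34.6 and 42.6) and Efnb1 (1.52 and 3.08). Maternal reads went from 899 to 170 for Hmgn5, from 1382 to 706 for Kif4 and from 1008 to 339 for Rps6ka6. They went from 479 to 435 for Snx12 and were 38 in each library for Efnb1. With MD1/MD1 the paternal shares of the same genes were higher with Xist1lox/+ as well. Hmgn5 was at 8.59% and 41.8%, Kif4 at 13.6% and 32.2% and Rps6ka6 at 1.25% and 21.5%. Snx12 was at 14.8% and 28.7%, and Efnb1 at 5.88% and 48.5%. Sh3bgrl (0% and 4.83%), Yipf6 (0.562% and 5.95%), Fndc3c1 (0.332% and 1.30%) and Zc4h2 (2.33% and 10.8%) differed by less. Of the 11 genes that differed within 10 Mb, 8 had a difference of the same sign with MD1/MD1, and of the 16 farther away 7 did.

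The interval was not uniform. Genes lying between those above kept low shares, such as Ercc6l, a mitotic helicase with 0 of 616 and 0 of 602 reads, Ogt, the enzyme that attaches N-acetylglucosamine to proteins (0.0748% and 0.254%), and Atrx, a chromatin remodeller (0% and 0.139%). Allele assignment rests on a list of strain variants that was not used here, and the strain origin of the X carrying each Xist mutation is not given in the labels. Their part in these shares was not tested.

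**Figure D2:**
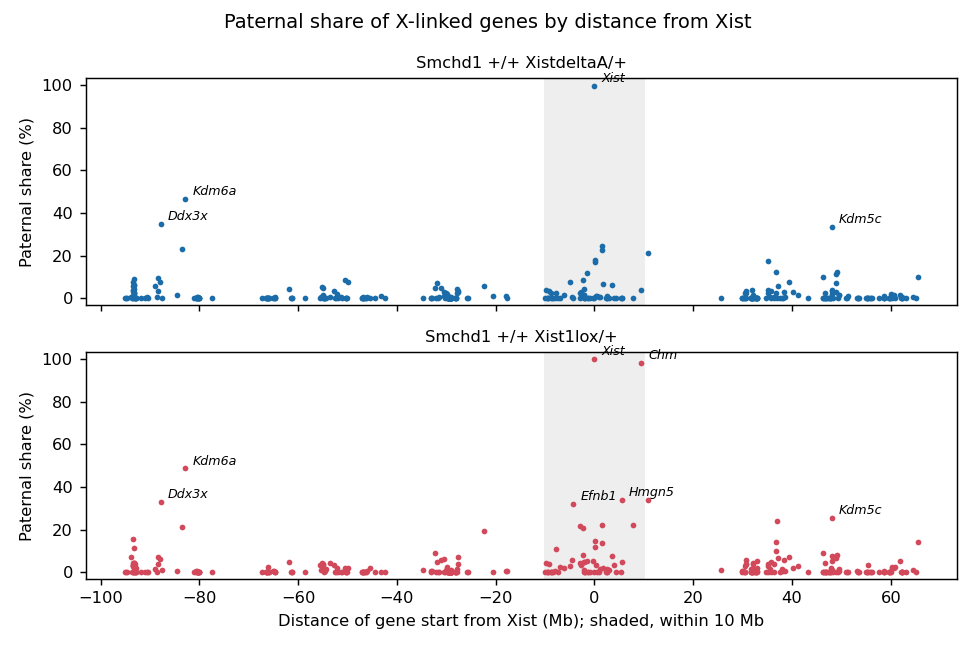
Paternal share (y axis, percent) of 355 X-linked genes by the distance of their start from that of Xist (x axis, Mb), with XistdeltaA/+ above, Xist1lox/+ below and the span within 10 Mb shaded. Kdm6a, Ddx3x and Kdm5c appear in both panels, while Chm at 98.1%, Hmgn5 at 34.1% and Efnb1 at 32.1% stand above the baseline in the lower one.

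Away from Xist the difference with the smallest adjusted p was that of Tmem47, a membrane protein of cell junctions (78315983 to 78343214). It had a share of 5.58% (4.79 to 6.45) with XistdeltaA/+ and 19.6% (18.01 to 21.2) with Xist1lox/+ (Fisher's exact test, adjusted p = 4.75e-57), and 34.1% and 34.0% with MD1/MD1. Gpkow, a splicing protein, went from 7.76% to 15.4% (Fisher's exact test, adjusted p = 0.00263), and Col4a6, a basement membrane collagen, from 0 to 24.1% of only 29 reads each (adjusted p = 0.0422). All 5 lower shares with Xist1lox/+ lay outside the 10 Mb span. Beside Kdm5c and Utp14a these were Bcor, a transcriptional corepressor (5.61% and 1.37%), Otud5, a deubiquitinase (2.48% and 0.434%), and Pqbp1, a splicing factor (1.33% and 0%). Otud5 and Pqbp1 had shares of 17.5% to 19.8% and of 12.4% to 14.3% with MD1/MD1.

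Total output of the X hardly differed. The median log2 ratio of FPKM + 1, Xist1lox/+ over XistdeltaA/+, was -0.059 for 385 X-linked genes and -0.025 for 10992 autosomal genes. Medians of single autosomes ran from -0.093 to 0.024. FPKM attributed to the maternal X, summed over the 352 genes, was 1.02 times higher with Xist1lox/+, and that attributed to the paternal X 1.26 times higher, at 223 against 177. The sums include the 54 genes within 10 Mb of Xist, which gave most of the added paternal reads. At least 2-fold higher with Xist1lox/+ were 4 X-linked genes, Pim2, Klhl4, Tmem35 and Cxx1c. Pim2, a survival kinase, was at 50.1 and 156 FPKM and Klhl4 at 1.59 and 5.62. At least 2-fold lower were 9, Ripply1, Rnf128, Tsix, Eda2r, Dcaf12l1, Usp11, Tceanc, Sh3bgrl and Dynlt3. Rnf128, a ubiquitin ligase, was at 21.0 and 6.52 FPKM and Eda2r, a receptor of the tumour necrosis factor family, at 10.1 and 3.25.

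The next comparison was of total expression across all genes. The mean FPKM was 1 or more for 11377 genes. With Xist1lox/+, 182 of these (1.6%) were higher by 2-fold or more and 164 (1.44%) lower. These ratios have no test. The XistdeltaA/+ library was the extreme one more often than the Xist1lox/+ library was. It had the lowest FPKM of all 4 libraries for 174 of the 182 higher genes and the highest for 154 of the 164 lower genes, while Xist1lox/+ was at the opposite end of the 4 for 81 and 121. Over all genes tested XistdeltaA/+ was lowest for 29.4% and highest for 38.1%. The choice of genes by this ratio favours such extremes.

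Macrophage genes made up the most marked group. Of 12 measured members of the macrophage list 11 were at least 2-fold higher with Xist1lox/+ and 0 lower, with a median log2 ratio of 2.47. Measured members are those with a mean FPKM of at least 1 over these same 2 libraries. For 6 of them XistdeltaA/+ was listed at 0, so they passed this filter only through Xist1lox/+. Their place past 2-fold was thereby fixed in advance. Lyz2, the macrophage lysozyme, had 0.384 FPKM with XistdeltaA/+ and 274 with Xist1lox/+ (log2 ratio 7.63), on 10 and 5825 allele-assigned reads. Ctss, the lysosomal protease cathepsin S, was at 0.0436 and 24.0 FPKM. Tyrobp, an adaptor of immune receptors, and the complement genes C1qa and C1qc were listed at 0 with XistdeltaA/+ and at 15.1, 8.86 and 5.68 with Xist1lox/+. Fcgr3, an Fc receptor, was listed at 0 and at 6.22. Among all 19 members of the list, 8 were listed at 0 with XistdeltaA/+ and 0 with Xist1lox/+. Their summed FPKM was 24.4 and 380, of which Cd68 contributed 21.7 and 19.3 and was the 1 member that did not differ by 2-fold. In the MD1/MD1 libraries the order was turned, with sums of 1069 for XistdeltaA/+ and 343 for Xist1lox/+, and 11 of the 12 members were at least 2-fold lower with Xist1lox/+ there. In bulk samples fewer cells of a type and less RNA per cell cannot be told apart. Some members lay in autosomal windows where both libraries had both parental types. With Xist1lox/+ the paternal reads there were 23 of 478 for Ctss, 0 of 176 for Laptm5, 2 of 97 for Emr1 and 107 of 299 for Cd68. Genes of these windows that differed by less than 2-fold had a median paternal share of 48.8% in that library. Tyrobp lay in a window where only Xist1lox/+ had both types, and 8 of its 12 reads with Xist1lox/+ were paternal. Which cells the macrophage reads came from was not tested.

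Of the 15 highest ratios 6 belonged to the macrophage list. Gpnmb, a glycoprotein of phagocytic cells, Wfdc17, the chemokine genes Ccl6 and Pf4, S100a4, a calcium-binding protein, and Nupr1, a stress-induced nuclear protein, were among the rest. Gpnmb was at 0.140 and 24.5 FPKM, S100a4 at 6.90 and 57.8, and Nupr1 at 4.47 and 43.7. These 6 were lower with Xist1lox/+ in the MD1/MD1 libraries, by log2 ratios between -1.18 and -2.22. All but Gpnmb lay in windows where both +/+ libraries had both parental types. Their paternal reads with Xist1lox/+ and Smchd1 +/+ were 0 of 53 for Wfdc17, 0 of 190 for Ccl6 and 0 of 37 for Pf4. S100a4 had 0 of 112 and Nupr1 22 of 172. Markers of other cell types differed by less between the +/+ libraries. Of 9 measured fibroblast genes 0 differed by 2-fold, with a median log2 ratio of 0.56 and a summed FPKM of 45.9 and 61.7 for the 12 in the table. With MD1/MD1 the fibroblast list was turned as well, with a median of -0.99, 4 of 9 members at least 2-fold lower and sums of 132 and 62.8. Of 7 endothelial genes 0 had a mean FPKM of 1. The 5 measured primitive endoderm and 6 measured trophoblast genes had medians of -0.15 and -0.28 and 0 past 2-fold.

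**Figure D3:**
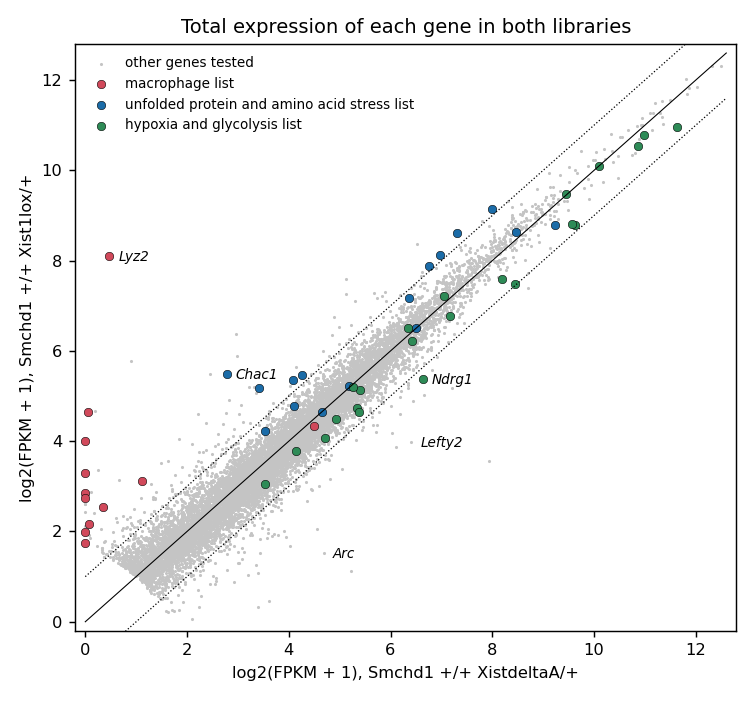
Total expression of 11377 genes as log2(FPKM + 1) with XistdeltaA/+ (x axis) and Xist1lox/+ (y axis), with members of 3 gene lists coloured, equality as a solid line and 2-fold differences dotted. Macrophage genes lie along the left edge (Lyz2 at 0.384 against 274 FPKM), most genes of the unfolded protein and amino acid stress list lie above the solid line and most of the hypoxia and glycolysis list below it.

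Genes induced by amino acid shortage and protein stress were higher as a group with Xist1lox/+. Of 16 measured members 8 were at least 2-fold higher and 0 lower, with a median log2 ratio of 0.96, where 1.6% of all genes were 2-fold higher. Chac1, an enzyme that degrades glutathione, was at 5.87 and 44.1 FPKM (log2 ratio 2.71), and Trib3, a pseudokinase induced by Atf4, at 9.67 and 35.1. Atf4, the transcription factor of this response, was at 256 and 561. Enzymes of serine, glycine and asparagine synthesis went along, with Psat1 at 158 and 388, Shmt2 at 107 and 235 and Asns at 125 and 276. Herpud1 and Sesn2 were the other 2 past 2-fold. The chaperones did not follow, with Hspa5 at 354 and 396 and Hsp90b1 at 603 and 443. With MD1/MD1 the list had a median of 0.18 and 0 members past 2-fold, and Atf4 was at 417 and 442.

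Hypoxia and glycolysis genes were lower with Xist1lox/+ by smaller amounts. Of 22 measured, 19 had ratios below 0 and 1 was past 2-fold, with a median log2 ratio of -0.40. That gene was Ndrg1, a hypoxia-induced protein, at 98.1 and 40.6 FPKM. Ddit4, an inhibitor of mTOR signalling, was at 346 and 178, and the glucose transporters Slc2a1 and Slc2a3 at 790 and 441 and at 760 and 447. Ldha, among the highest expressed, was at 2014 and 1755. The median with MD1/MD1 was 0.39. Targets of p53 were also lower on balance, with 13 of 17 ratios below 0, a median of -0.54, 3 genes past 2-fold lower (Trp53inp1, Eda2r and Ccng1) and 1 higher (Sesn2). Trp53inp1 was at 32.0 and 9.40 FPKM and Ccng1, a cyclin, at 73.2 and 33.7. Cdkn1a, the p21 cell cycle inhibitor, was at 55.5 and 37.9 and Mdm2 at 52.8 and 37.5.

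Immediate early genes, which respond to growth factors within minutes, all had ratios above 0. Their 16 log2 ratios ran from 0.03 to 1.35 with a median of 0.81, and 1 was past 2-fold, Egr3 at 4.82 and 13.8 FPKM. Egr1 was at 332 and 580 and Fos at 388 and 529. Arc, a neuronal gene of the same kind that was not on the list, went the other way, at 24.8 and 1.88 FPKM and on 1412 and 126 allele-assigned reads. The macrophage level differed along with the stress, hypoxia, p53 and immediate early lists between the same libraries, and its part in them was not tested.

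**Figure D4:**
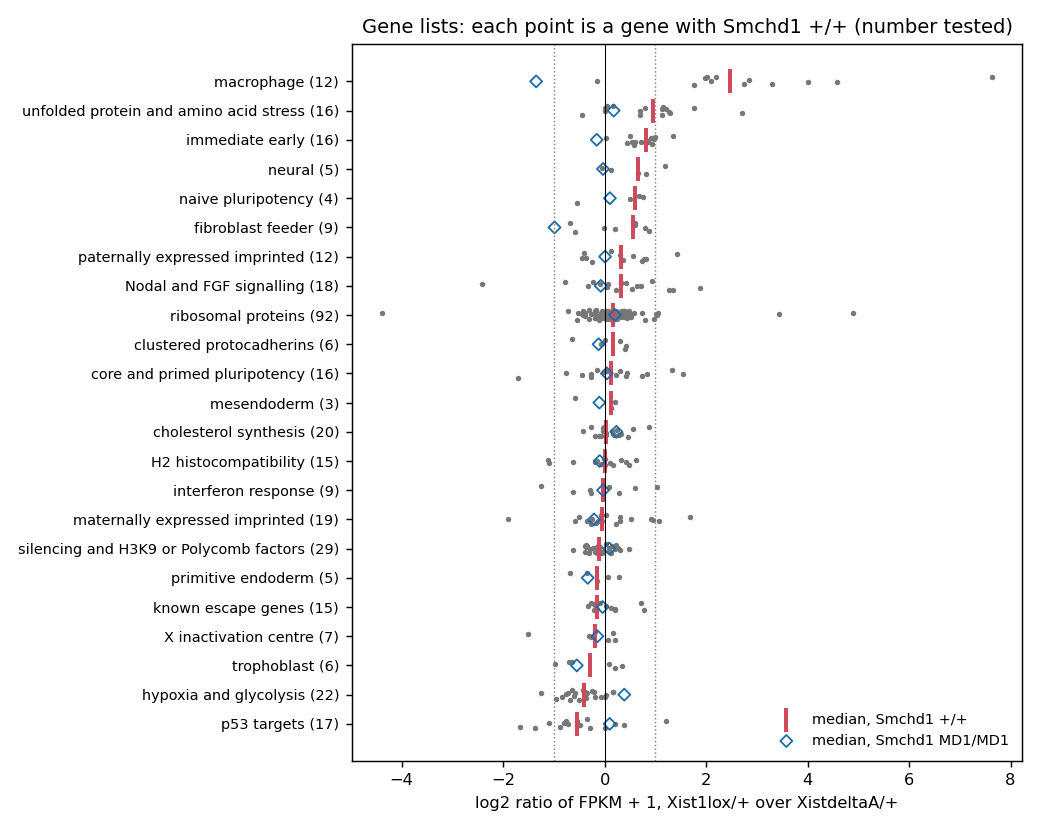
Log2 ratio of FPKM + 1, Xist1lox/+ over XistdeltaA/+ (x axis), for each measured gene of the lists with at least 3 measured members (y axis, number in brackets), with red bars for the median with Smchd1 +/+ and blue diamonds for that with MD1/MD1, and 2-fold dotted. The macrophage median of 2.47 lies beyond 2-fold, opposite to its median of -1.35 with MD1/MD1, and the other medians lie within 2-fold.

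Core and primed pluripotency genes were expressed in both libraries. Of 16 measured genes of the core and primed list 2 were at least 2-fold higher with Xist1lox/+ and 1 lower, with a median of 0.13. The higher ones were Sox2, at 30.5 and 91.4 FPKM, and Foxd3, at 5.10 and 14.4. Pou5f1, which encodes the core factor Oct4, was at 551 and 984, Otx2 at 80.9 and 47.5, and Nanog at 87.1 and 90.04. Of 14 naive pluripotency genes only 4 (Klf2, Klf4, Klf5 and Fgf4) had a mean FPKM of at least 1. Klf2 was at 31.4 and 50.6 FPKM and Klf4 at 24.2 and 34.8. Mesendoderm genes reached that level for 3 of 14, with 0 past 2-fold. Among all genes tested 1.6% were at least 2-fold higher and 1.44% lower.

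Signals of the Nodal and FGF pathways, on which EpiSCs depend, were split. Of 18 measured members 3 were at least 2-fold higher with Xist1lox/+ and 1 lower, against 1.6% and 1.44% of all genes. Fgf8, a growth factor of the early epiblast, was at 8.96 and 35.6 FPKM, and the FGF targets Etv4 and Spry4 were at 2.22 and 7.17 and at 3.50 and 9.88. Lefty2, a secreted antagonist of Nodal, was at 84.1 and 14.9, whereas its paralogue Lefty1 was at 472 and 771 and Nodal at 65.9 and 89.0.

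Of the imprinted genes 3 noncoding RNA genes of the Dlk1-Meg3 region, all expressed from the maternal allele, were higher with Xist1lox/+. Mirg was at 5.52 and 19.9 FPKM and Rian at 35.3 and 75.6, both past 2-fold, and Meg3 at 43.0 and 82.3 was just short of it. Of 19 measured maternally expressed imprinted genes 1 was 2-fold lower, Slc22a3, an organic cation transporter, at 9.79 and 1.86. Of 12 paternally expressed ones 1 was 2-fold higher, Plagl1, a zinc finger factor, at 1.53 and 5.75. Among all genes tested 1.6% were at least 2-fold higher and 1.44% lower. Imprints were read from the shares in windows where both libraries had both parental types. Of 8 paternally expressed genes there 7 had at least 90% paternal reads in each library, and the other was Igf2, at 60.4% and 69.1%. Of 15 maternally expressed genes in such windows 7 with XistdeltaA/+ and 8 with Xist1lox/+ had 10% paternal reads or fewer. Whether each listed gene is imprinted in EpiSCs was not tested. H19, Cdkn1c and Rian had 0.352% or fewer in both libraries, while Slc22a3 was at 48.7% and 44.3%. Grb10, a growth inhibitor, was at 0.400% and 1.27% (Fisher's exact test, adjusted p = 8.61e-06) and Peg10 at 99.2% and 97.3% (adjusted p = 0.0294).

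Lists of silencing factors and housekeeping pathways held few or no genes past 2-fold. Among all genes tested 1.6% were at least 2-fold higher and 1.44% lower, so a count of 0 does not set a short list apart from other genes. Of 29 measured factors of X silencing, H3K9 methylation and Polycomb repression 0 differed by 2-fold, with a median of -0.11 and ratios from -0.62 to 0.49. Of 20 cholesterol synthesis genes 0 did, with a median of 0.03. Of 15 H2 and antigen-processing genes 2 were lower (Tap1 and H2-Q2), and of 9 interferon response genes 1 was higher (Isg15) and 1 lower (Ifitm1). Of 6 measured clustered protocadherins and 2 germline genes 0 passed. Among 5 neural genes Tubb3 was higher, at 15.3 and 36.4. Of 92 measured genes whose symbols begin with Rpl or Rps and a number, 5 were higher and 1 lower, with a median of 0.16. Most encode ribosomal proteins, but the symbols also take in S6 kinase genes such as Rps6ka6 and a few pseudogenes. The extreme ones, Rpl28 at 0.861 and 54.0 FPKM, Rps6 at 6.75 and 82.5 and Rpl27 at 244 and 10.8, have processed copies elsewhere in the genome, which makes their FPKM uncertain. Allele-assigned reads of Rps6 were 44 and 34, in the opposite order. Gm12504 (36.3 and 1.19), Gm6251 (11.2 and 0.380) and H2-Q8 (6.55 and 0.842), among the 15 lowest ratios, may likewise share reads with copies.

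The libraries also differed in which autosomal regions carried a paternal allele that can be told from the maternal one. Of 257 windows of 10 Mb, 168 had both types in both libraries, 35 had both types only with XistdeltaA/+ and 15 only with Xist1lox/+. Maternal-type only means a median paternal share under 5%. Where both types were present, single autosomes had median paternal shares between 48.2% and 50.6% with XistdeltaA/+ and between 46.2% and 49.5% with Xist1lox/+. Such differing windows held 17.8% of the genes tested, 29.1% of the genes at least 2-fold higher and 30.5% of those at least 2-fold lower. By the read test 98.3% of 1260 genes differed in share in the first kind of window and 93.1% of 553 in the second, as the choice of windows implies. In windows with both types in both libraries 704 of 6590 did (10.7%).

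Of the 15 genes with the lowest ratios 8 lay in windows where only XistdeltaA/+ had a distinct paternal allele, which held 12.7% of genes tested. Over all genes tested in those windows the ratios were not one-sided. At least 2-fold higher with Xist1lox/+ were 37 (2.56%) and lower 38 (2.62%), with a median log2 ratio of -0.020. Among the 8, Lefty2 shows a low ratio together with a missing paternal type most fully. With XistdeltaA/+ it had 2551 paternal and 532 maternal reads, and with Xist1lox/+ 535 reads, all maternal-type. In the MD1/MD1 libraries, which both carried the paternal type there, its shares were 89.9% and 89.4% and its FPKM 71.1 and 120. Soat1, which esterifies cholesterol, went from 4713 paternal and 806 maternal reads to 8 and 1059, and from 68.2 to 13.5 FPKM. Zfp385c had 97.4% paternal reads of 497 with XistdeltaA/+ and 14 reads, all maternal-type, with Xist1lox/+. Cntd1 had 324 paternal and 82 maternal reads, then 65 maternal-type.

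Atp1b1, a subunit of the sodium pump, and Eno2, the neuronal enolase, had paternal shares of 60.9% and 89.0% with XistdeltaA/+ and 0% with Xist1lox/+. Their FPKM was 146 and 35.0, and 14.4 and 2.65. Cdh2, or N-cadherin, was at 97.0% paternal and 7.07 FPKM with XistdeltaA/+ and at 5.62% and 1.46 FPKM with Xist1lox/+. With MD1/MD1 the order was turned in both measures, with 1.82% and 1.28 FPKM in XistdeltaA/+ and 92.8% and 4.36 FPKM in Xist1lox/+. Gpr137b differed from these: only 12.5% of its 240 reads with XistdeltaA/+ were paternal, and its maternal-type reads went from 210 to 67. In the windows with both types only in XistdeltaA/+, median paternal shares in that library were set side by side. They were 58.8% for 31 genes at least 2-fold lower, 48.8% for 1169 that differed by less and 44.3% for 16 at least 2-fold higher. Adcy1, Pdzk1, Tal2 and Arc, also among the 15 lowest, had reads of both types in both libraries.

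**Figure D5:**
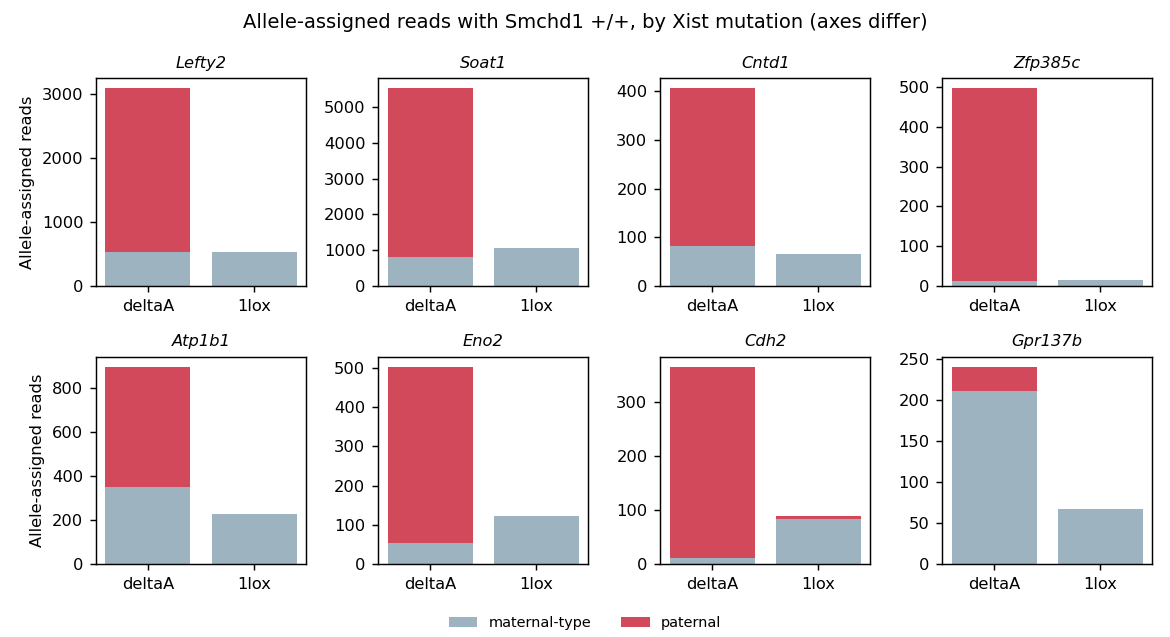
Allele-assigned reads (y axis, a separate scale for each gene) of 8 genes of windows with a distinct paternal allele only with XistdeltaA/+, stacked as maternal-type (grey) and paternal (red) reads for each Xist genotype (x axis). For Lefty2 the maternal-type reads are 532 and 535, and for Gpr137b they are 210 and 67.

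In windows with both types in both libraries the 10 genes with the largest called share differences were of mixed kinds. Lars, Rbm27 and Dpysl3 are neighbours on chromosome 18 and went from 55.1%, 53.5% and 53.8% paternal to 0.0177%, 0.495% and 0%, which places a boundary of parental type inside their window. Ube2e2 and Nkiras1 on chromosome 14 went from 0.338% and 0% to 54.5% and 53.5%. With XistdeltaA/+ their window had a median share of 41.1%, and those on either side had 44.0% and 48.1%. Medians of whole windows cannot show whether a short stretch around these genes differed in parental type, and this was not tested. With MD1/MD1 the shares of Ube2e2 and Nkiras1 were 65.8% and 41.7% in XistdeltaA/+ and 1.19% and 0% in Xist1lox/+. Mcrs1 and 1810037I17Rik went from 5.35% and 27.6% to 58.3% and 90.9%, on 299 and 36 and on 949 and 44 allele-assigned reads at near-equal FPKM (32.3 and 33.9, and 93.9 and 102). Ikzf2, Loxl1 and Elavl4 rested on 21 to 75 reads a library.

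The same Xist contrast with MD1/MD1 shares no library with the one described and gave 35 genes at least 2-fold higher (0.308%) and 191 lower (1.68%). Of the 182 higher genes 3 were 2-fold higher there too and 67 were 2-fold lower. Of the 164 lower genes 8 were lower there and 5 higher. Those with the same direction were Frmd4b, 1810044D09Rik and Hist1h3c among the higher and Gpr137b, Gm6251, Alms1-ps2, Ninj2, Rmrp, Pet117, AA467197 and Gm6402 among the lower. Of these 11 genes 6 lay in windows with both types only in XistdeltaA/+. Frmd4b, a scaffold protein, was at 6.47 and 16.4 FPKM with +/+ and at 4.33 and 11.7 with MD1/MD1, and its paternal share was 9.96% and 0.155%, then 11.2% and 0%. Gpr137b was at 22.5 and 3.15, then at 21.3 and 3.39. Parental type in these windows and Xist genotype cannot be told apart with these libraries.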

How the data were processed

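The study measured RNA of 4 EpiSC libraries, of which the 2 with Smchd1 +/+ are compared. For each gene the authors deposited a count of allele-assigned reads, the fraction of them that is paternal and an FPKM value, per the file headers. Per the submitters' processing notes, Cufflinks 2.2.1, Cuffdiff and the mm9 build were used, in roles not stated. Per the labels' protocols, total RNA was isolated with TRIzol and a stranded mRNA kit was used. Aligner and variant list: not given in the sources used here. Another 6 columns match no sample label and stayed out. Allele-assigned reads summed to 7826600 (XistdeltaA/+) and 7822217 (Xist1lox/+), and the table lists 22686 genes.

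Paternal reads were recovered as fraction times count, whole within 1e-06. Starts were taken to count from 0 and are printed from 1. Shares used genes with at least 20 reads in both libraries and a deposited fraction. Fisher's exact test (scipy 1.17.1, two-sided) and the 2-fold rule on log2(FPKM + 1), which understates low genes, were tried on simulated data. The pseudocount was 1 and the filter a mean FPKM of 1. Members and lists were chosen with earlier results of these data known. Named genes were Smchd1, Xist and Tsix, the 15 highest and 15 lowest ratios, X-linked genes at 10% or more in both libraries, the 10 largest called share differences each way on the X and 5 each way on autosomes, and list members past 2-fold (at most 6) or highest expressed (3). Others were named after their values were seen. Alternatives changed the pseudocount, filters, scaling, coverage minimum, thresholds and windows.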

Additional observations from a re-analysis of the deposited data

Results flagged for a closer look

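The Xist contrast was compared between Smchd1 genotypes for each X-linked gene through its log odds ratio of the paternal share (natural log, 0.5 added to each count). The difference between genotypes was tested against a normal distribution and adjusted (Benjamini-Hochberg) over all X-linked genes measured in the 4 libraries. It compares reads of these libraries. Among the genes that differed with +/+, 7 had a different log odds ratio with MD1/MD1. The difference, +/+ minus MD1/MD1, was 5.55 for Kif4, 4.81 for Hmgn5, 3.07 for Snx12, 2.29 for Yipf6, 1.42 for Tmem47, 1.17 for Wbp5 and -1.34 for Utp14a. The adjusted p ran from 9.34e-36 for Tmem47 to 0.0388 for Hmgn5. Kif4 and Hmgn5 had 0 paternal reads with XistdeltaA/+, so their values depend on the 0.5 added. Wbp5 had shares of 1.49% and 4.31% with +/+ and 3.60% and 3.30% with MD1/MD1. Chm was not among these 7 genes.

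The macrophage list had a median log2 ratio of 2.47 with +/+ and of -1.35 with MD1/MD1, in opposite directions. That difference was not tested.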

How the results depend on the processing

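Of 53 recomputed values 26 stayed close to the reported value, 27 moved and 0 reversed. No paired analysis was possible because each group had 1 library, and no replicate could be left out. The counts of genes at least 2-fold higher and lower, 182 and 164, were 321 and 326 with a pseudocount of 0.1, 98 and 102 at a mean FPKM of at least 5, and 562 and 445 with allele-assigned reads scaled to their total. Without genes past 2-fold the other way with MD1/MD1, an alternative added after seeing the data, 115 were higher. Genes past 2-fold the same way with MD1/MD1 numbered 8 higher and 29 lower with a pseudocount of 0.1, and 3 lower at a mean FPKM of 5. The pooled paternal share of the X was 2.58% and 3.43% without Xist, Ftx and Jpx, 2.17% and 3.10% as a mean over genes, and, added after seeing the data, 2.82% and 3.18% without genes within 10 Mb of Xist. Genes at 10% or more numbered 37 and 50 at 5%, 8 and 14 at 20%, and 9 and 12 without that span. With XistdeltaA/+ they were 7 by the lower bound of the interval and 9 at 50 reads. X-linked genes that differed in share numbered 8 when 10 percentage points were required and 16 without that span. Windows of 5 Mb gave 95 of differing parental type against 50, being more numerous. Genes on few reads, such as Col4a6 and Jpx, are limited by depth.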
